A study of Homo sapiens with 9 samples.

Results

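The genes described here build the contacts of an epithelial cell with its matrix and with its neighbours: 44 genes named as integrin chains, laminin chains, cadherins and catenins, claudins and other tight junction genes, desmosomal genes, keratins and syndecans. Members were taken as every probe whose gene symbol in the platform annotation is 1 of the 44 names. This gave 84 of the 47323 probes on the array and 43 of the 20046 annotated genes, and LAMA3, a laminin chain without a matching probe, was not analysed here. Of the 43 genes, 38 were among the 11428 genes tested. The other 5, namely ITGB3, ITGB6, ITGB8, OCLN and KRT5, had no probe above background on any of the 9 arrays.

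PC3 is an established human prostate carcinoma line that grows without androgen. The cells received siRNA at 50 nM and were harvested after 48 h, in 3 groups with 3 Illumina bead arrays each: a pool of siRNAs against MELK, a kinase abundant in proliferating cells; a pool against UBE2C, which hands ubiquitin to substrates of the anaphase-promoting complex; and the AllStars negative control siRNA. Both pools were bought from a different supplier than the control, so in each knockdown an effect of the targeted gene and one of the siRNA's make cannot be told apart against control. All groups are 1 cell line, and the labels do not say whether the 3 samples of a group were grown and transfected apart. The p-values therefore rest on a spread between samples that may be technical.

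Integrins are pairs of an alpha and a beta chain that bind laminins, collagens or fibronectin outside the cell and link them to actin or, through hemidesmosomes, to keratin. Between epithelial cells, cadherins hold adherens junctions and desmosomes together, claudins seal tight junctions, and catenins, plakophilins and desmoplakin tie them to the cytoskeleton. Prostate carcinoma lines differ widely in how much of this equipment they keep, and PC3 cells are known to lack alpha-catenin, which usually joins cadherins to actin.

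The targeted transcripts followed the labels: MELK was lower with MELK siRNA by -1.09 on the log2 scale (limma, adjusted p = 7.82e-06) and UBE2C was lower with UBE2C siRNA by -1.31 (limma, adjusted p = 4.15e-08). Per array 16559 to 18661 probes were above background; precision is limited by how few arrays there are. UBE2C siRNA replicate 1 stood apart: across kept probes it correlated with the others at 0.848 to 0.877, while the 8 others correlated with each other at 0.981 to 0.990. Results are therefore given for 8 arrays without it (2 UBE2C siRNA arrays). Differences of UBE2C siRNA from control are also given for all 9 where they changed sign, moved by more than 0.3 or were called. This holds for the tested probes of members and of related lists. The epithelial markers KRT8, KRT18, EPCAM and CDH1 were above background (4 of 4), and of the androgen-responsive luminal markers TMPRSS2 was so on 9 arrays and KLK2 and KLK3 on 0. Of other cell types, 3 of 7 fibroblast, 1 of 5 endothelial and 1 of 5 blood cell markers were kept, with DCN, PDGFRB, VWF, CDH5, KDR, PTPRC, CD3E and HBB above background on 0 arrays. The summed normalized signal of the fibroblast markers was 53.6 to 87.3 in MELK siRNA arrays, 27.8 to 50.3 in UBE2C siRNA arrays and 52.4 to 77.9 in control arrays. The signal of the blood cell marker CD68 was 1392 to 1532 in MELK siRNA arrays, 1657 to 2404 in UBE2C siRNA arrays and 1660 to 1940 in control arrays. That of the endothelial marker PECAM1 was 73.7 to 81.0 in MELK siRNA arrays, 31.6 to 98.8 in UBE2C siRNA arrays and 52.3 to 95.3 in control arrays. Their part in the results below was not tested.

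With MELK siRNA 4 of the 38 tested members fell (ITGA3, LAMA5, CLDN3 and SDC1) and 1 rose (PERP) against control, beside 5.51% of all genes that passed in either direction. With UBE2C siRNA 4 fell (ITGA3, ITGB4, LAMA5 and SDC1) and 1 rose (DSC2), beside 4.46% of all genes. These calls come from limma's moderated test on 8 arrays at a Benjamini-Hochberg adjusted p under 0.05 over 11428 genes, which placed 3.22% of all genes lower and 2.29% higher with MELK siRNA, and 2.78% lower and 1.68% higher with UBE2C siRNA. The median log2 change over the 38 members was -0.08 with MELK siRNA, beside 0.00 over all genes, and -0.15 with UBE2C siRNA, beside -0.02 over all genes. The comparisons share the control arrays, so members called in both do not count as 2 separate observations. With all 9 arrays, weighted alike and with a plain prior, 0 members were called in each comparison (limma; 3 with MELK siRNA and 9 with UBE2C siRNA at an unadjusted p under 0.05, beside 616 and 1274 of all genes), where 0% of all genes were called with MELK siRNA and 0.00875% with UBE2C siRNA. The choice of prior ended the calls by itself: with 8 arrays and a plain prior 0 members passed in either knockdown, the called members having limma adjusted p from 0.0826 to 0.166 with MELK siRNA and from 0.112 to 0.146 with UBE2C siRNA. With all 9 arrays, array weights and a trended prior 6 members passed with MELK siRNA and 7 with UBE2C siRNA. More of all genes passed with UBE2C siRNA there than on 8 arrays as well. The spread behind the test differed between the fits: the median residual SD over genes was 0.17 with 8 arrays and 0.31 with 9.

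The counts also rested on other arrays and settings. The numbers of all genes called changed too, as the closing section gives, so low counts here are not particular to the members. With MELK siRNA 2 members passed without MELK siRNA replicate 2 or replicate 3 (ITGA3 and LAMA5), 3 without control replicate 1 or without UBE2C siRNA replicate 2 or 3 (ITGA3, LAMA5 and PERP), and 3 without control replicate 2 (ITGA3, LAMA5 and PKP3). With UBE2C siRNA, leaving out its replicate 2 or 3 left 1 array in the group. The median log2 change over the members was then -0.17 without replicate 2 and -0.14 without replicate 3, beside -0.02 over all genes each time. In the same comparison 2 members passed without control replicate 1 or 2 (ITGA3 and LAMA5) and 3 without MELK siRNA replicate 2 (ITGA3, ITGB4 and LAMA5). Centring arrays on their medians in place of quantile normalization left 1 call with MELK siRNA (PERP) and 0 with UBE2C siRNA. With the detection p as the only filter 2 passed with MELK siRNA (ITGA3 and LAMA5) and 0 with UBE2C siRNA. None of the called members changed sign in these settings.

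**Figure D1:**
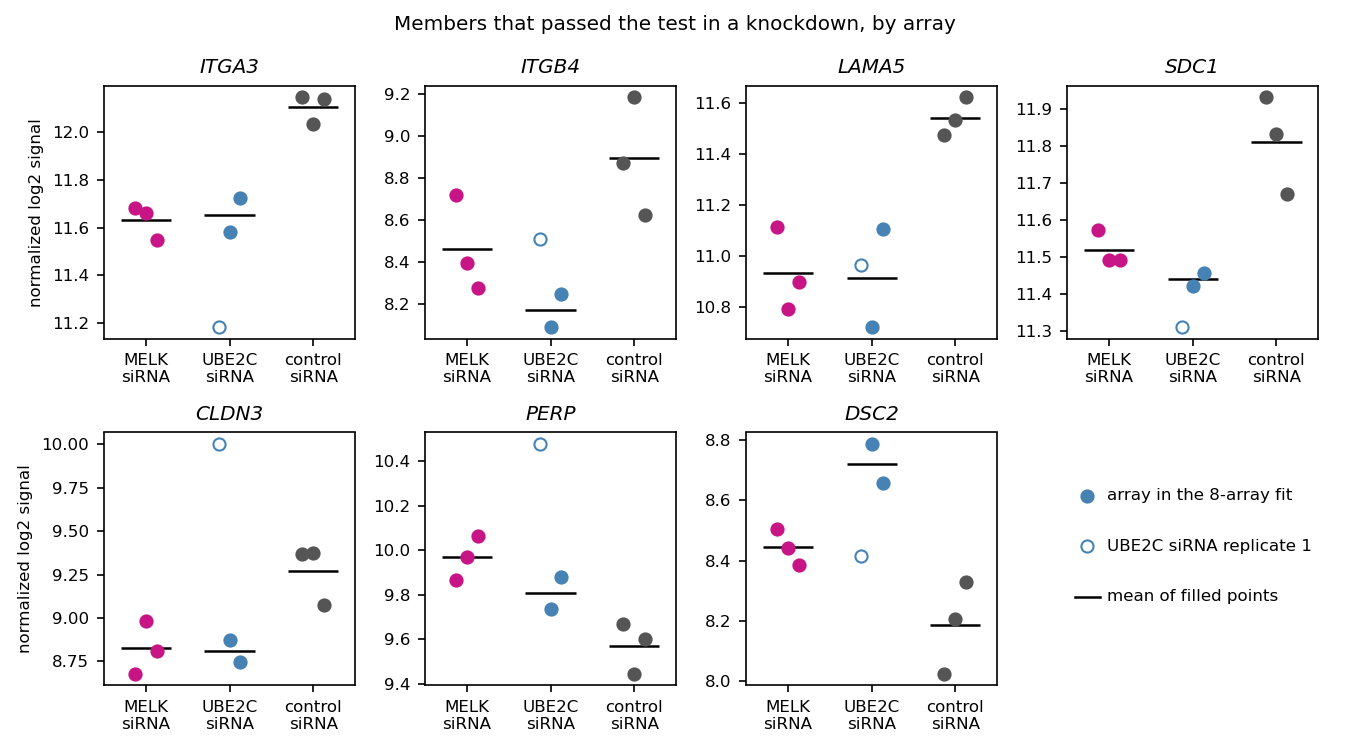
Normalized log2 signal (y axis) of the 7 members that passed the test in at least 1 knockdown, by array and group (x axis), with the mean of the filled points as a line and UBE2C siRNA replicate 1 as an open circle outside that mean. ITGA3, LAMA5 and SDC1 lay lower on every array of both knockdowns than on every control array, while the open circle for CLDN3 lay above all control arrays.

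Promoters could be read from the RefSeq promoter table (build GRCh38.p14, 250 bases before to 50 after the start) for 32 of the 44 members. Those of 4 members that passed the test are shown. LAMA5 and SDC1 fell in both knockdowns, PERP rose with MELK siRNA and DSC2 rose with UBE2C siRNA. CLDN3, which also passed and has a promoter in that table, is not shown. Whether these sequences bear on the direction of change was not tested. Capitals mark E-box letters CACCTG, GC box letters GGGCGG and AP-1 letters TGANTCA on either strand. The LAMA5 window is chr20:62367263-62367562, that of SDC1 chr2:20225426-20225725, that of PERP chr6:138107370-138107669 and that of DSC2 chr18:31102372-31102671, all on the minus strand and written 5′ to 3′ along the gene.
LAMA5: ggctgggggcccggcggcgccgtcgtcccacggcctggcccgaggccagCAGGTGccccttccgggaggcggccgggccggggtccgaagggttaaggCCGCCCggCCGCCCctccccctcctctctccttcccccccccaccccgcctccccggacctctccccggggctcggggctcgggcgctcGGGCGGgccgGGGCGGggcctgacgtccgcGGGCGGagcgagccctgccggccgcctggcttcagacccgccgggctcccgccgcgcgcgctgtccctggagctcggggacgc
SDC1: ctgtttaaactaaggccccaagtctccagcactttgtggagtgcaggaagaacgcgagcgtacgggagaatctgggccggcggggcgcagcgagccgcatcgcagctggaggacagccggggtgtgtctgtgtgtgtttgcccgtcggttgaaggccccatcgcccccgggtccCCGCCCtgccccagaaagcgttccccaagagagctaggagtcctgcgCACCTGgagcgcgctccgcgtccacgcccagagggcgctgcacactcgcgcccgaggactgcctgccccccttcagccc
PERP: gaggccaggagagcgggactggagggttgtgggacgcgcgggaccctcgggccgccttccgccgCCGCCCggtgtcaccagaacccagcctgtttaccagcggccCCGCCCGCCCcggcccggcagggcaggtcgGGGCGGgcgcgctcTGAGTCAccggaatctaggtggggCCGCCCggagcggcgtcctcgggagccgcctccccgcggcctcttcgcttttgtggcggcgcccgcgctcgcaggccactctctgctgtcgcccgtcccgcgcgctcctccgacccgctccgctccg
DSC2: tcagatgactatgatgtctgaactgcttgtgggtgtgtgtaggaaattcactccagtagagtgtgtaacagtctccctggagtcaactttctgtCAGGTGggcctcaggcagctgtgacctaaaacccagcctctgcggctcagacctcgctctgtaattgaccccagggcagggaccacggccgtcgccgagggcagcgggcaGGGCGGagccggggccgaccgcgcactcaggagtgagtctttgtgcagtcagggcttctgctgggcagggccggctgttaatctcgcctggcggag
The E-box letters occurred at 1 place each in LAMA5, SDC1 and DSC2 and at 0 places in PERP. They were found in 13 of the 32 member promoters and in 20.6% of all 27305 promoters of this length. The GC box letters occurred at 5 places in LAMA5, 1 in SDC1, 5 in PERP, where 2 of them overlap, and 1 in DSC2, in 26 of 32 members and in 44.6% of all promoters. The AP-1 letters were in 4 of 32 members, among these shown only PERP with 1 place, and in 7.76% of all promoters. A match of letters is a description of the sequence and not a binding site.

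Among the integrin alpha chains 1 of 6 tested passed in each knockdown, ITGA3, which pairs with the beta 1 chain to bind laminins. Its tested probe (ILMN_1685397) had log2 signals of 11.68, 11.66 and 11.55 in MELK siRNA arrays, 11.18, 11.58 and 11.73 in UBE2C siRNA arrays 1 to 3, and 12.14, 12.03 and 12.14 in control arrays. All 6 knockdown arrays lay below all 3 control arrays, and the 3 control arrays lay close together. The fall was -0.48 with MELK siRNA (SE 0.08, limma adjusted p = 0.00376), which left 71.9% of the control signal. It was -0.45 with UBE2C siRNA (SE 0.09, limma adjusted p = 0.0132), and -0.61 with all 9 arrays (limma adjusted p = 0.397). In a bulk sample less transcript per cell cannot be told apart from fewer cells that carry it. A second ITGA3 probe gave 5.31, 5.70 and 5.91 in MELK siRNA arrays, 5.05, 5.06 and 5.42 in UBE2C siRNA arrays and 6.44, 5.70 and 5.74 in control arrays. It differed the same way in both knockdowns, by -0.32 with MELK siRNA and -0.72 with UBE2C siRNA when every kept probe was tested, and did not pass the test. This probe was above background on only 1 of 3 UBE2C siRNA arrays, so the size of that difference is uncertain.

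The other 5 alpha chains did not pass. The largest positive difference was that of ITGAV, the alpha chain of vitronectin receptors, at 0.29 with MELK siRNA (95% interval -0.03 to 0.62) and 0.51 with UBE2C siRNA (0.15 to 0.88, limma adjusted p = 0.0924). That value turned to -0.67 with all 9 arrays, where the probe was not above background on UBE2C siRNA replicate 1 (4.38, against 7.87 and 7.99 on replicates 2 and 3). The fibronectin receptor chain ITGA5 differed by -0.17 with MELK siRNA and -0.41 with UBE2C siRNA (0.07 with all 9 arrays). Of the collagen receptor chains ITGA1 differed by -0.10 with MELK siRNA and -0.02 with UBE2C siRNA (0.21 with all 9 arrays) and ITGA2 by -0.20 with MELK siRNA and -0.21 with UBE2C siRNA, and ITGA6, the usual partner of the beta 4 chain, by 0.07 with MELK siRNA and 0.22 with UBE2C siRNA.

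Of the beta chains ITGB4 passed with UBE2C siRNA, 1 of 3 tested. ITGB4 pairs with ITGA6 and anchors hemidesmosomes to keratin. Its tested probe (ILMN_2334210) read 8.72, 8.39 and 8.27 in MELK siRNA arrays, 8.51, 8.09 and 8.25 in UBE2C siRNA arrays and 8.87, 9.18 and 8.63 in control arrays. All 3 UBE2C siRNA arrays lay below all control arrays, while 1 MELK siRNA array lay inside the control range. ITGB4 fell, with a difference of -0.72, with UBE2C siRNA (SE 0.16, limma adjusted p = 0.0232; -0.61 with all 9 arrays, limma adjusted p = 0.411), and its difference with MELK siRNA was -0.43 (SE 0.15, limma adjusted p = 0.0919). A second ITGB4 probe read 7.60, 7.16 and 7.21 in MELK siRNA arrays, 4.14, 7.11 and 7.49 in UBE2C siRNA arrays and 7.83, 7.55 and 7.43 in control arrays. It differed by -0.30 with UBE2C siRNA and -0.28 with MELK siRNA, neither called, so the fall rests on the tested probe. ITGB1, the beta chain shared by most integrins here, differed by 0.07 with MELK siRNA (95% interval -0.09 to 0.24) and 0.06 with UBE2C siRNA (-0.13 to 0.24), and ITGB5, partner of ITGAV, by -0.17 with MELK siRNA and -0.20 with UBE2C siRNA (0.00 with all 9 arrays). A second ITGB1 probe stood at -0.36 with MELK siRNA (SE 0.49) and 0.34 with UBE2C siRNA (SE 0.55), without passing. A second ITGB5 probe stood at -0.18 with MELK siRNA and -0.33 with UBE2C siRNA. The third kept ITGB5 probe stood at 0.17 with MELK siRNA and -0.14 with UBE2C siRNA, and neither probe passed. The 3 beta chains ITGB3, ITGB6 and ITGB8 were not well above background on any array.

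The laminins are trimers of an alpha, a beta and a gamma chain that these integrins bind. LAMA5, an alpha chain of epithelial basement membranes, fell in both knockdowns. Its probe (ILMN_1773567) read 11.11, 10.79 and 10.90 in MELK siRNA arrays, 10.97, 10.72 and 11.11 in UBE2C siRNA arrays and 11.48, 11.53 and 11.62 in control arrays. Every knockdown array lay below every control array, UBE2C siRNA replicate 1 included. The fall was -0.61 with MELK siRNA (SE 0.10, limma adjusted p = 0.00547), leaving 65.6% of the control signal, and -0.63 with UBE2C siRNA (SE 0.12, limma adjusted p = 0.0126), leaving 64.7%. With all 9 arrays the values were nearly the same, -0.61 with MELK siRNA (limma adjusted p = 0.884) and -0.61 with UBE2C siRNA (limma adjusted p = 0.397), and did not pass.

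The 4 other laminin chains did not pass in either knockdown (UBE2C siRNA, limma adjusted p from 0.0992 for LAMB3 to 0.398 for LAMC1). With UBE2C siRNA all 5 tested chains were negative, with groups that did not overlap in any of them on 8 arrays: LAMB1 at -0.38, LAMB2 at -0.48, LAMB3 at -0.33 and LAMC1 at -0.17. This sign held for all 5 under median scaling, cyclic loess and the authors' processed values, but with all 9 arrays LAMB2 stood at 0.28, LAMB1 at -0.77 and LAMB3 at -0.69. A second LAMB1 probe stood at -0.11 with UBE2C siRNA and 0.08 with MELK siRNA. The 2 UBE2C siRNA arrays other than replicate 1 lay below all 3 control arrays for 16 of 38 members, beside 21.6% of all genes, and above for 5, beside 17.3%. With MELK siRNA LAMB1 was at -0.25 (95% interval -0.50 to 0.01), LAMB2 at -0.04, LAMC1 at -0.03 and LAMB3, a chain of hemidesmosome laminin, at 0.05. There the groups did not overlap for 7 members lower and 5 higher, beside 11.9% and 13.8% of all genes.

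SDC1, a heparan sulfate proteoglycan of epithelial surfaces that binds laminin and growth factors, fell in both knockdowns. Its probe (ILMN_1815308) read 11.57, 11.49 and 11.49 in MELK siRNA arrays, 11.31, 11.42 and 11.46 in UBE2C siRNA arrays and 11.93, 11.83 and 11.67 in control arrays. All knockdown arrays lay below the lowest control array, by a narrow margin for MELK siRNA. The fall was -0.29 with MELK siRNA (SE 0.08, limma adjusted p = 0.0456) and -0.37 with UBE2C siRNA (SE 0.09, limma adjusted p = 0.0331; -0.41 with all 9 arrays, limma adjusted p = 0.410). SDC4, the syndecan of focal adhesions, differed by 0.10 with MELK siRNA (95% interval -0.14 to 0.35) and 0.07 with UBE2C siRNA (-0.21 to 0.34; -1.86 with all 9 arrays).

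Of the 6 adherens junction members 0 passed in either knockdown. E-cadherin (CDH1), the main cadherin of epithelia, differed by -0.11 with MELK siRNA (95% interval -0.33 to 0.11) and -0.17 with UBE2C siRNA (-0.41 to 0.08; -0.56 with all 9 arrays), and P-cadherin (CDH3) by -0.26 with MELK siRNA and -0.35 with UBE2C siRNA. EPCAM, an epithelial adhesion molecule, differed by 0.11 with MELK siRNA and 0.16 with UBE2C siRNA (0.00 with all 9 arrays). Beta-catenin (CTNNB1), which binds cadherin tails and also carries Wnt signals, stood at -0.34 with MELK siRNA and 0.20 with UBE2C siRNA (-0.29 with all 9 arrays). A second CTNNB1 probe stood at -0.62 with MELK siRNA and 0.51 with UBE2C siRNA, without passing. CTNNA1, the gene of alpha-catenin, was dim: its tested probe read 5.29, 5.13 and 5.54 in MELK siRNA arrays, 6.26, 5.42 and 4.91 in UBE2C siRNA arrays and 4.50, 4.49 and 4.79 in control arrays. It was above background on 3 MELK siRNA, 2 UBE2C siRNA and 1 control array, and a second CTNNA1 probe on 0 arrays. The positive differences of 0.73 with MELK siRNA (limma adjusted p = 0.113) and 0.57 with UBE2C siRNA (limma adjusted p = 0.262; 0.94 with all 9 arrays) did not pass. CTNND1, a catenin that holds cadherins at the surface, was not well above background on any control array, so its differences of -0.09 with MELK siRNA and 0.10 with UBE2C siRNA (0.37 with all 9 arrays) give no usable fold.

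Among the tight junction members CLDN3, a barrier-forming claudin, fell with MELK siRNA. Its probe (ILMN_1723042) read 8.68, 8.98 and 8.81 in MELK siRNA arrays, 10.00, 8.87 and 8.75 in UBE2C siRNA arrays and 9.37, 9.37 and 9.07 in control arrays. All MELK siRNA arrays and UBE2C siRNA replicates 2 and 3 lay below the control arrays, and UBE2C siRNA replicate 1 lay above them. The fall was -0.45 with MELK siRNA (SE 0.12, limma adjusted p = 0.0366). With UBE2C siRNA the difference was -0.46 on 8 arrays and did not pass (SE 0.13, limma adjusted p = 0.0542), and it was -0.06 with all 9. The other claudins tested were positive in both knockdowns on 8 arrays without passing: CLDN4 at 0.57, CLDN7 at 0.30 and CLDN1 at 0.25 with MELK siRNA, and CLDN4 at 0.39 (0.03 with all 9 arrays), CLDN7 at 0.11 (-0.52 with all 9 arrays) and CLDN1 at 0.05 with UBE2C siRNA. TJP1, the scaffold also called ZO-1, stood at 0.02 with MELK siRNA (95% interval -0.37 to 0.41) and 0.13 with UBE2C siRNA (-0.31 to 0.56; -0.67 with all 9 arrays), and occludin (OCLN) was not above background. A second TJP1 probe stood at -0.20 with MELK siRNA (SE 0.23) and 0.43 with UBE2C siRNA (SE 0.26), without passing.

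In the desmosome group 1 of 7 tested members passed in each knockdown, a different gene each time. PERP, a tetraspan protein of desmosomes, rose with MELK siRNA. Its probe (ILMN_1775829) read 9.87, 9.97 and 10.07 in MELK siRNA arrays, 10.48, 9.74 and 9.88 in UBE2C siRNA arrays and 9.67, 9.45 and 9.60 in control arrays. All knockdown arrays lay above all control arrays, UBE2C siRNA replicate 1 highest. The rise was 0.39 with MELK siRNA (SE 0.10, limma adjusted p = 0.0299), to 131% of the control signal. The difference with UBE2C siRNA was 0.24 (SE 0.11, limma adjusted p = 0.210; 0.46 with all 9 arrays). For PERP, MELK siRNA and UBE2C siRNA differed by 0.16 (95% interval -0.07 to 0.39).

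DSC2, the desmosomal cadherin desmocollin 2, rose with UBE2C siRNA. Its tested probe (ILMN_1663119) read 8.50, 8.44 and 8.39 in MELK siRNA arrays, 8.41, 8.79 and 8.66 in UBE2C siRNA arrays and 8.03, 8.20 and 8.33 in control arrays. All 6 knockdown arrays lay above the control arrays. The rise was 0.53 with UBE2C siRNA (SE 0.13, limma adjusted p = 0.0322; 0.43 with all 9 arrays, limma adjusted p = 0.415), and the difference with MELK siRNA was 0.26 (SE 0.12, limma adjusted p = 0.205). A second DSC2 probe read 5.82, 5.43 and 5.70 in MELK siRNA arrays, 4.29, 5.81 and 5.40 in UBE2C siRNA arrays and 5.56, 4.99 and 5.90 in control arrays, with overlapping groups. It differed by 0.12 with UBE2C siRNA (SE 0.30) and 0.16 with MELK siRNA (SE 0.26), neither called, so the rise rests on the tested probe. When every kept probe was tested, the tested probe did not pass with UBE2C siRNA (limma adjusted p = 0.0520).

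The other 5 desmosomal members did not pass. The largest negative difference with MELK siRNA was that of plakophilin 3 (PKP3), a plaque protein, at -0.70 (95% interval -1.23 to -0.18, limma adjusted p = 0.103), and with UBE2C siRNA that of plakoglobin (JUP), which serves both desmosomes and adherens junctions, at -0.48 (-0.77 to -0.18, limma adjusted p = 0.0580; -1.37 with all 9 arrays). A second JUP probe differed by -0.55 with MELK siRNA and -0.63 with UBE2C siRNA, also without passing. The third kept JUP probe stood at -0.46 with MELK siRNA but at -0.04 with UBE2C siRNA (SE 0.31). Desmoplakin (DSP), which ties desmosomes to keratin, stood at -0.12 with MELK siRNA and -0.13 with UBE2C siRNA (-1.02 with all 9 arrays). The desmosomal cadherin desmoglein 2 (DSG2) stood at -0.07 with MELK siRNA and -0.17 with UBE2C siRNA (0.07 with all 9 arrays), and plakophilin 2 (PKP2) at -0.04 with MELK siRNA and -0.22 with UBE2C siRNA (-0.99 with all 9 arrays). A second DSG2 probe stood at -0.43 with MELK siRNA (SE 0.24) and -0.10 with UBE2C siRNA (SE 0.26), without passing. PKP3 stood at -0.45 with UBE2C siRNA (-1.20 with all 9 arrays).

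Of the keratins, the intermediate filaments that desmosomes and hemidesmosomes hold, 0 of 4 passed. KRT7, KRT8, KRT18 and KRT19 are keratins of simple epithelia. With MELK siRNA the differences of their tested probes ran from -0.24 for KRT19 (SE 0.07, limma adjusted p = 0.0541) to -0.03 for KRT7. All 4 were negative on 8 arrays, though 1 turned positive under median scaling. With UBE2C siRNA they ran from -0.26 for KRT8 (0.17 with all 9 arrays) to 0.15 for KRT18 (-0.78 with all 9 arrays), and KRT19 stood at -0.08 (-0.83 with all 9 arrays). A second KRT18 probe was positive, at 0.42 with MELK siRNA and 0.16 with UBE2C siRNA, without passing. The basal keratin KRT5 was not above background on any array.

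**Figure D2:**
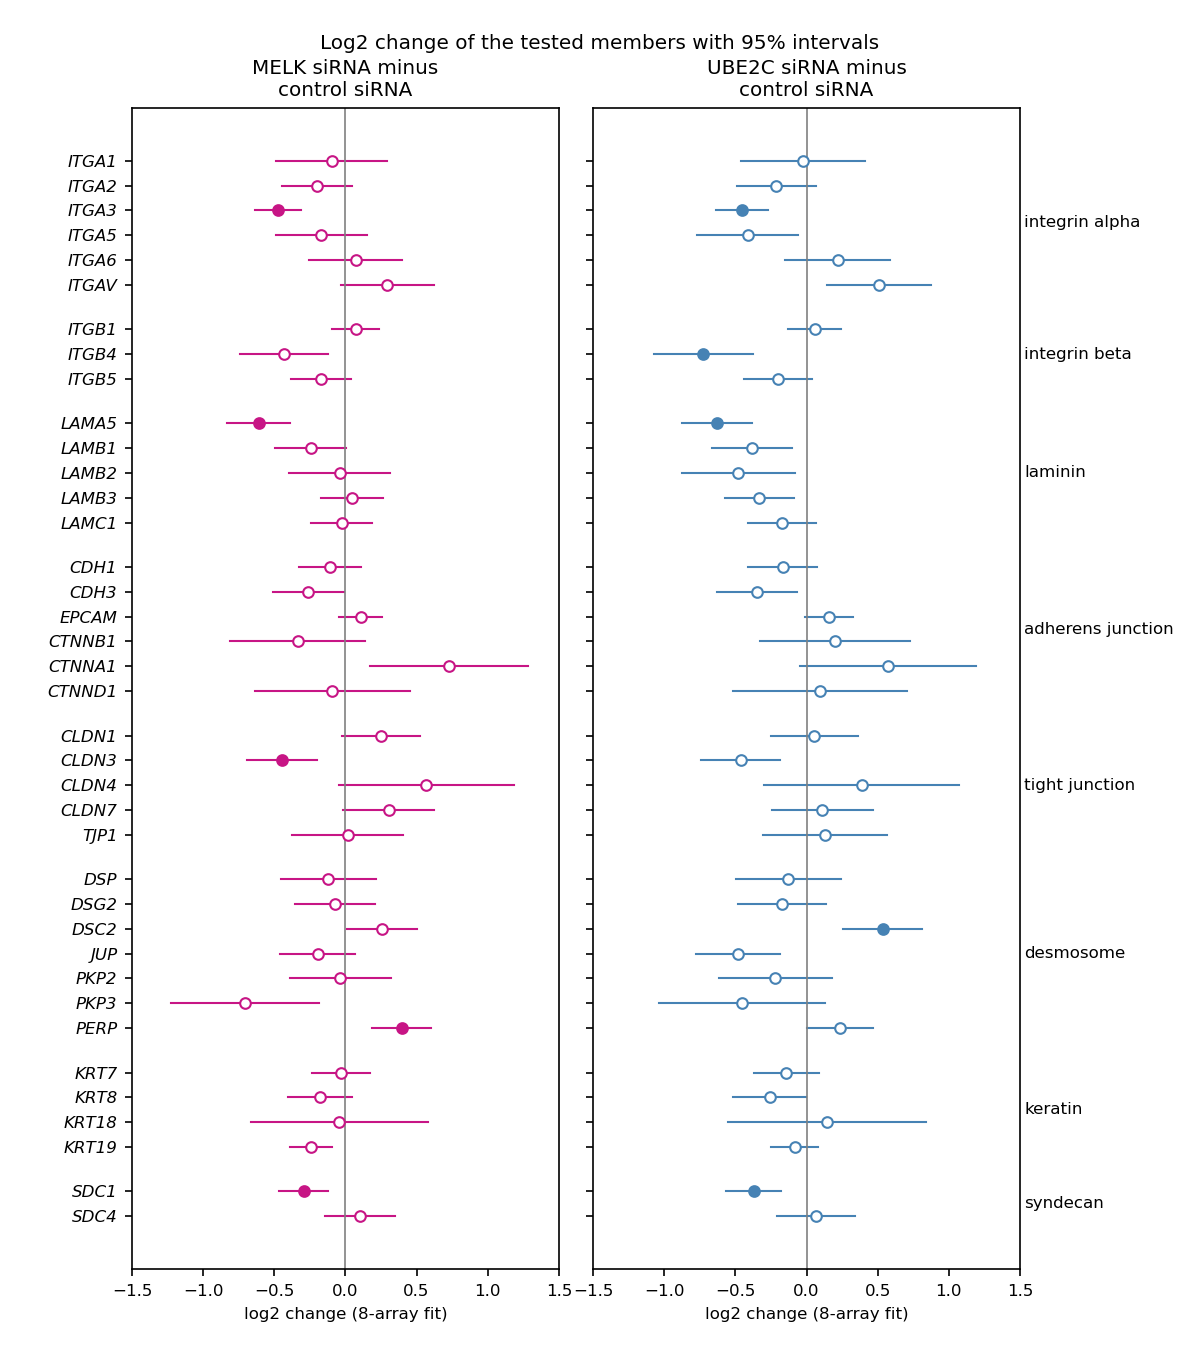
Log2 change (x axis, 8-array fit) of the 38 tested members by role (y axis) in each knockdown against control, with 95% intervals, and filled points for those that passed the test. In each panel 5 points are filled, and the points of the 5 laminin chains lie left of 0 with UBE2C siRNA.

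Set directly against each other, the knockdowns, whose pools share a supplier, called 0 of the 38 members (limma, 8 arrays; 0.0175% of all genes, which are MELK and UBE2C themselves). At an unadjusted p under 0.05 there were 4 members, beside 581 of all genes, and with all 9 arrays 0 were called and 1 had an unadjusted p under 0.05. Groups did not overlap for 7 members higher and 2 lower in MELK siRNA arrays, beside 14.2% and 9.22% of all genes. The 4, named after their values were seen, were LAMB3 at 0.38 in MELK siRNA minus UBE2C siRNA (95% interval 0.14 to 0.62), LAMB2 at 0.44 (0.04 to 0.84), DSC2 at -0.28 (-0.55 to -0.00) and CTNNB1 at -0.54 (-1.07 to -0.01), each with a limma adjusted p of 0.937. A second CTNNB1 probe stood at -1.13 (SE 0.28, limma adjusted p = 0.936 when every kept probe was tested). For ITGA3 the difference between knockdowns was -0.02 (95% interval -0.21 to 0.16), for LAMA5 0.02 (-0.23 to 0.27), for SDC1 0.08 (-0.11 to 0.27), for CLDN3 0.02 (-0.26 to 0.29) and for ITGB4 0.29 (-0.05 to 0.64). The calls of PERP with 1 pool and of DSC2 and ITGB4 with the other are thus not shown to differ between the pools.

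Inside the cell, integrins act through focal adhesion proteins. In a list of 30 focal adhesion, hemidesmosome and basement membrane genes, 23 were tested, and 5 fell with MELK siRNA, beside 3.22% of all genes, and 4 with UBE2C siRNA, beside 2.78% of all genes, with 0 rising in either. ZYX, the focal adhesion LIM protein zyxin, fell by 0.60 with MELK siRNA (SE 0.07, limma adjusted p = 0.0011) and -0.38 with UBE2C siRNA (SE 0.08, limma adjusted p = 0.0197). TNS3, a tensin that binds integrin tails, fell by 0.43 with MELK siRNA and by 0.44 with UBE2C siRNA, and the actin crosslinker ACTN1 by 0.34 with MELK siRNA and by 0.39 with UBE2C siRNA. ACTN4, its close relative, passed with MELK siRNA at -0.59 and talin (TLN1), which activates integrins, at -0.48. With UBE2C siRNA ACTN4 stood at -0.64 (limma adjusted p = 0.0502) and TLN1 at -0.48 (limma adjusted p = 0.0550) without passing, and the difference between the knockdowns was 0.05 for ACTN4 and 0.00 for TLN1. The kinase SRC passed with UBE2C siRNA at -0.39 and stood at -0.20 with MELK siRNA. Over all 9 arrays the UBE2C siRNA values were -0.35 for ZYX, -0.48 for TNS3, -0.40 for ACTN1, -0.85 for SRC and -0.15 for TLN1. The median over the 23 was -0.20 with MELK siRNA and -0.23 with UBE2C siRNA, beside 0.00 and -0.02 over all genes. These counts rested on the same settings as those of the members: 0 passed in either knockdown with all 9 arrays weighted alike, with 8 arrays and a plain prior or under median scaling, 0 with UBE2C siRNA without its replicate 2 or 3 or without control replicate 2 or with the detection p alone, and 1 with MELK siRNA without MELK siRNA replicate 2. With array weights on all 9 arrays 5 passed with MELK siRNA and 10 with UBE2C siRNA.

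**Figure D3:**
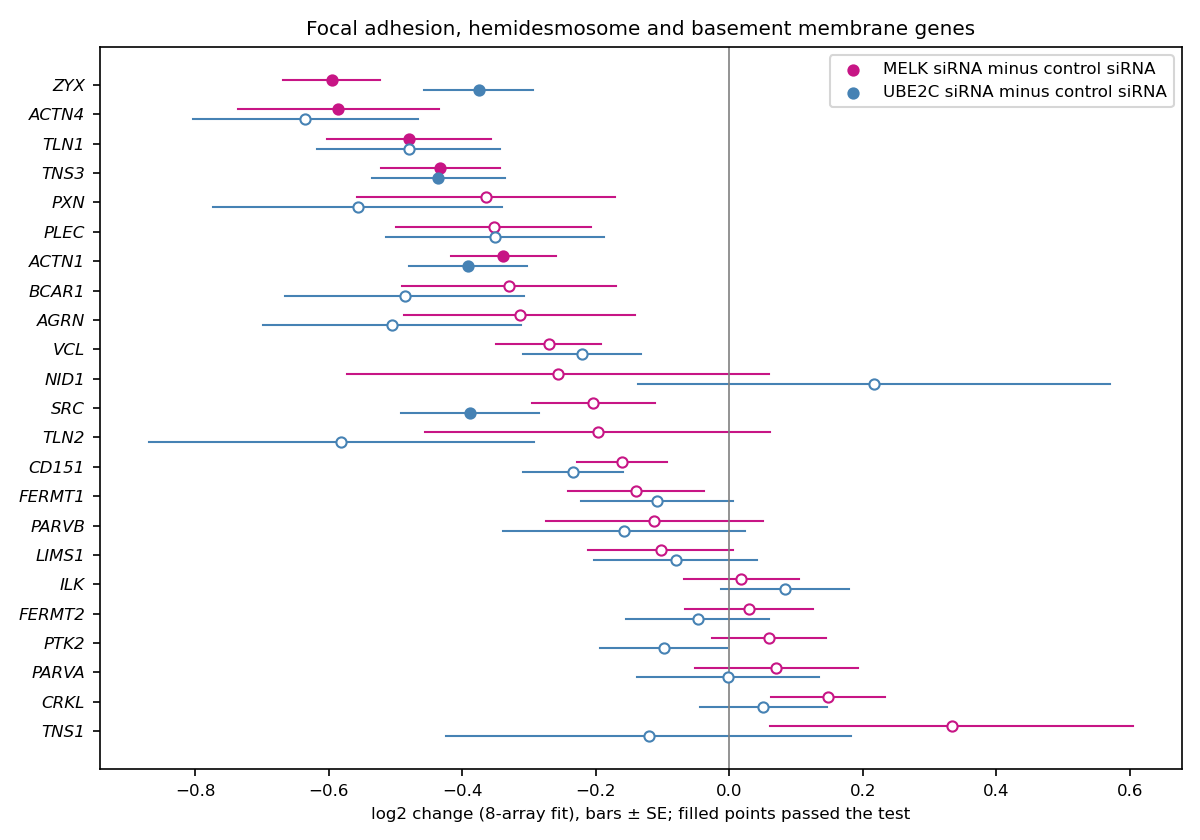
Log2 change against control (x axis, bars ± SE, 8-array fit) of the 23 tested focal adhesion, hemidesmosome and basement membrane genes (y axis), with filled points for those that passed the test. The 5 filled points for MELK siRNA and the 4 for UBE2C siRNA all lie left of 0.

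The remaining lists held few calls. Of 22 other adherens and tight junction genes tested, 1 rose with MELK siRNA, beside 2.29% of all genes, and 0 passed with UBE2C siRNA. It was the claudin CLDN12 at 0.45 (SE 0.12, limma adjusted p = 0.0409), which stood at 0.17 with UBE2C siRNA. Of 5 other desmosome and plakin genes, 1 fell with UBE2C siRNA, beside 2.78% of all genes, and 0 passed with MELK siRNA. It was PKP4 at -0.49 (SE 0.13, limma adjusted p = 0.0372, and -0.18 with all 9 arrays), which stood at -0.35 with MELK siRNA. Among 10 other integrin and laminin chains, 3 other keratins, 5 other syndecans and glypicans, 6 regulators of the epithelial programme and 8 mesenchymal genes and regulators of epithelial-mesenchymal transition, 0 passed in either knockdown. Vimentin (VIM), the mesenchymal intermediate filament, picked from the last group after its values were seen, stood at -0.11 with MELK siRNA and -0.08 with UBE2C siRNA (-0.64 with all 9 arrays). With all 9 arrays, and between the knockdowns, 0 genes of these lists passed.

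UBE2C siRNA replicate 1 differed from its own group in many members. Its signal was more than 1 log2 unit below the mean of UBE2C siRNA replicates 2 and 3 for 15 of 38 members (39.5%), beside 13.6% of all genes, and more than 1 above for 5 (13.2%), beside 16.1% of all genes. Measured against the other arrays of the group, 0 members were this far away on 7 of the 8 other arrays, and 1 was below on control replicate 1. For this, UBE2C siRNA replicates 2 and 3 were set against each other alone, without replicate 1. UBE2C siRNA replicate 1 lay below all 8 other arrays for 17 members (26.2% of all genes did so) and above all 8 for 13 (50.5% of all genes). Members of the desmosome (4 of 7), the tight junction (3 of 5), the keratins (2 of 4), the laminins (2 of 5) and the adherens junction (2 of 6) were among the 15, with 1 of 2 syndecans, 1 of 6 integrin alpha chains and 0 of 3 beta chains. These are values of 1 array and carry no test. That this array lowers many epithelial genes was known when the members were chosen. The counts describe that departure and are no separate support for it. With the authors' processed values, which have background left in, 8 members were more than 1 unit below. That count and the 15 are not on a like scale.

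The 10 largest departures were 9 losses and 1 gain. SDC4 read 4.29 on UBE2C siRNA replicate 1 and 10.03 and 10.14 on replicates 2 and 3, with 10.35, 10.13 and 9.88 in MELK siRNA arrays and 10.18, 10.02 and 9.86 in control arrays. ITGAV read 4.38 there and 7.87 and 7.99 on replicates 2 and 3, with 7.39, 7.92 and 7.83 in MELK siRNA arrays and 7.23, 7.41 and 7.61 in control arrays. Both probes were not above background on this array alone, so the drop is a bound, at least 44.6-fold for SDC4 and at least 9.99-fold for ITGAV against replicates 2 and 3. The bound takes the higher of that array's lowest signal above background and the probe's own. The keratin KRT18 read 4.35 there and 7.20 and 7.03 on replicates 2 and 3, with 6.51, 6.72 and 7.55 in MELK siRNA arrays and 7.31, 6.37 and 7.22 in control arrays. DSP read 4.55 there and 7.31 and 7.17 on the others of its group, with 7.07, 7.21 and 7.46 in MELK siRNA arrays and 7.10, 7.47 and 7.52 in control arrays. KRT18 and DSP were thus at least 5.68-fold and at least 6.18-fold lower, both below every other array.

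PKP2 read 4.31 on UBE2C siRNA replicate 1 and 6.59 and 6.69 on replicates 2 and 3, with 6.57, 7.13 and 6.77 in MELK siRNA arrays and 6.88, 6.81 and 6.89 in control arrays. PKP3 read 4.16 there and 6.69 and 6.08 on replicates 2 and 3, with 5.75, 6.48 and 6.17 in MELK siRNA arrays and 6.94, 6.34 and 7.23 in control arrays. Neither was above background there, at least 4.08-fold and at least 3.42-fold lower, and the same held for CTNNB1 (at least 2.77-fold) and CLDN4 (at least 2.08-fold), 8 members in all. JUP read 6.31 there and 9.14 and 8.84 on replicates 2 and 3, with 9.51, 9.15 and 9.15 in MELK siRNA arrays and 9.36, 9.64 and 9.41 in control arrays. TJP1 read 6.91 there and 9.32 and 9.31 on replicates 2 and 3, with 8.90, 9.19 and 9.50 in MELK siRNA arrays and 8.77, 9.26 and 9.52 in control arrays. JUP and TJP1 were still above background, -2.67 and -2.40 log2 units from the mean of replicates 2 and 3. KRT19 read 10.47 there and 12.67 and 12.77 on replicates 2 and 3, with 12.46, 12.63 and 12.61 in MELK siRNA arrays and 12.84, 12.76 and 12.81 in control arrays. LAMB2, a beta chain of laminin, went the other way and read 9.03 there and 6.93 and 6.58 on replicates 2 and 3, with 7.54, 7.05 and 7.00 in MELK siRNA arrays and 7.25, 7.32 and 7.13 in control arrays. KRT19 was -2.25 units from its group on this array and LAMB2 2.28 units. Smaller departures past 1 unit were those of CLDN7 (-1.90), CDH1 (-1.19), LAMB1 (-1.16) and LAMB3 (-1.08) downwards and of ITGA5 (1.46), KRT8 (1.30), CLDN3 (1.19) and CTNNA1 (1.09) upwards. The nearest members inside the limit of 1 unit were CTNND1 at 0.82 and DSG2 at 0.72 upwards and ITGA3 at -0.47 and EPCAM at -0.46 downwards, and CLDN4 at -1.06 lay just outside.

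**Figure D4:**
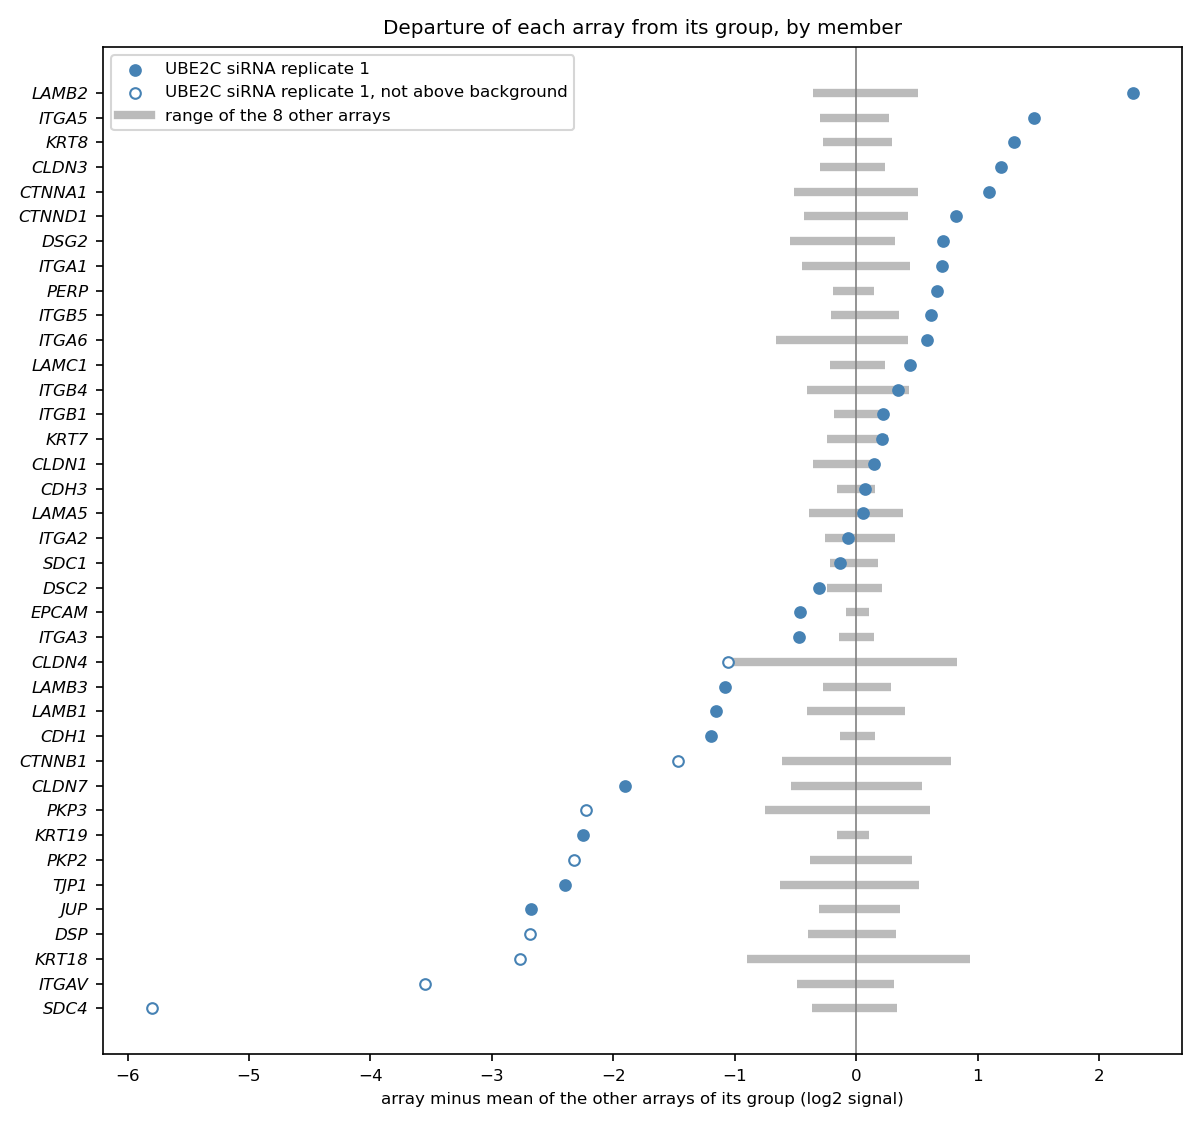
Departure of UBE2C siRNA replicate 1 from the mean of replicates 2 and 3 (x axis, log2 signal) for the 38 tested members (y axis), open where the probe was not above background there, with grey bars for the range over the 8 other arrays of each array against the others of its group. For the bars, UBE2C siRNA replicates 2 and 3 were set against each other alone, without replicate 1. SDC4 lies furthest left and LAMB2 furthest right, and 8 points are open.

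Probes of the same gene disagreed on this array. For 12 members a second probe was kept, giving 15 pairs with the tested probe. In 6 of the 15 pairs the probes departed in opposite directions, and in 13 the difference between the probes lay outside its range on the 8 other arrays. ITGB1 departed by 0.22 on the tested probe and by -3.19 on the second, ITGB4 by 0.34 and -3.16, DSG2 by 0.72 and -2.02, and LAMB1 by -1.16 and 1.01. TJP1 was lower on both probes, by -2.40 and -3.57. EPCAM, with 3 probes, departed by -0.46, -1.21 and 0.70. On the 8 other arrays the SD of the difference between probes ran from 0.11 to 0.66 over the pairs, and the departures of this difference on UBE2C siRNA replicate 1 had an SD of 1.84. What made the probes of 1 gene differ on this array was not tested.

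**Figure D5:**
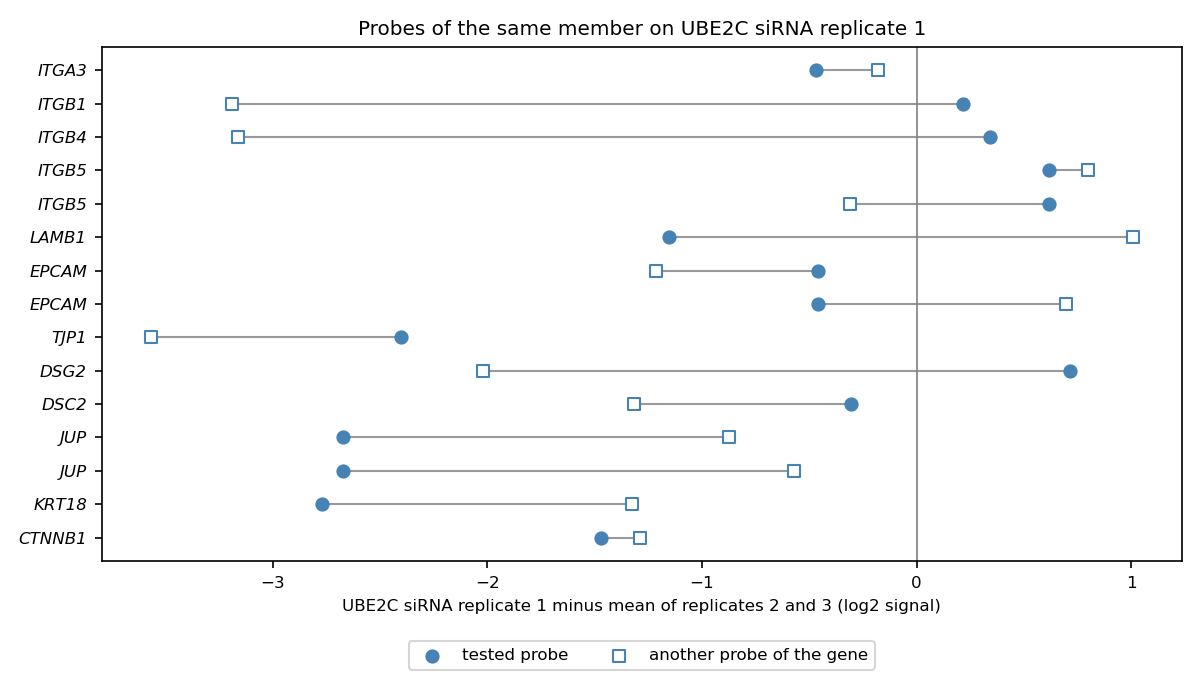
Departure of UBE2C siRNA replicate 1 from the mean of replicates 2 and 3 (x axis, log2 signal) for the tested probe (filled circle) and another kept probe (open square) of the same member (y axis), 1 line per pair. The lines of ITGB1, ITGB4, DSG2 and LAMB1 cross 0 with the longest spans.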

How the data were processed

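Per the file headers, each array has an intensity and a detection p-value for every probe. The intensities are linear and not background-subtracted, and the sources used here do not say how the authors obtained that p-value. A table of the authors' log2 values was used as an alternative. Set against the intensities it showed equal quantiles across arrays, background left in and column medians of 6.78. The submitters' processing notes name lumi.

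Intensities were corrected and quantile-normalized with neqc (offset 16) in limma 3.58.1 (R 4.3.3). Kept probes (19511) had a detection p under 0.01, with a signal higher than background, on 3 or more arrays. Between 2428 and 3108 probes per array had such a p below background. The probe with the highest mean stood for a gene (11428 genes). Of 47323 probes 30113 had 1 gene in GEO's platform annotation, 8 several and 17202 none listed; RefSeq (GRCh38.p14) matched 30074 and changed 0 symbols. Group means were fitted to 8 arrays with lmFit and eBayes (trended, robust), with Benjamini-Hochberg adjustment over all genes. Intervals are 95% from the moderated fit. The script was tested on simulated data. Batches were not tested, since the labels name none. Arrays of a group shared at most 14 identical signals. Replicate numbers were not taken as pairs: deviations of same-numbered MELK siRNA and control arrays correlated at 0.03, -0.06 and 0.18.

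The members, the 12 lists (166 genes), the left-out array and the prior were chosen with earlier results of these data known. Values on every array are given for members called in a comparison and for the 10 largest departures of UBE2C siRNA replicate 1; in each role group the largest positive and negative change is named, and up to 4 called genes per list and comparison by size, each with its value in the other comparison. MELK and UBE2C are named as targets. The alternatives were other fits, background corrections, scalings, filters, probe choices and each array left out.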

Additional observations from a re-analysis of the deposited data

How the results depend on the processing

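Over 24 alternatives each, all 240 values of called members kept their direction (0 reversed); LAMA5 with MELK siRNA kept its call in 20 and ITGA3 in 19, CLDN3 and SDC1 in 9 each. With all 9 arrays the member calls numbered 0 in each knockdown under the plain and the trended prior, and all called genes 0 with MELK siRNA (630 on 8 arrays), 1 with UBE2C siRNA (510) and 1 between the knockdowns (2). With array weights, which gave UBE2C siRNA replicate 1 a weight of 0.0466, all called genes were 1434 with UBE2C siRNA and 8 between the knockdowns. With 8 arrays and a plain prior, 0 members in each knockdown and 1 gene in each comparison passed. Median scaling left 1 member with MELK siRNA and 0 with UBE2C siRNA, and 159 genes with MELK siRNA, 9 with UBE2C siRNA and 1 between the knockdowns; the share of higher calls was then 84.3% in place of 41.6% with MELK siRNA and 77.8% in place of 37.6% with UBE2C siRNA. It moved the median of all genes by 0.08 with MELK siRNA and 0.03 with UBE2C siRNA; adding UBE2C siRNA replicate 1 moved that of the knockdowns by -0.10. Without a filter 2 members and 282 genes passed with MELK siRNA and 3 members and 211 genes with UBE2C siRNA; with the detection p alone 2 and 175 with MELK siRNA and 0 and 4 with UBE2C siRNA. With only the 2 groups in the fit 3 members and 356 genes passed with MELK siRNA. The mean over probes gave 3 members with UBE2C siRNA and 1 gene between the knockdowns. Testing every kept probe, chosen after seeing the data like every alternative for UBE2C siRNA replicate 1, called 3 members in each knockdown. The replicate block, on numbers not shown to pair the samples, gave 5 members and 731 genes with MELK siRNA and 3 members and 337 genes with UBE2C siRNA. Leaving out each array gave 2 to 6 members and 78 to 692 genes with MELK siRNA, 0 to 7 members and 2 to 755 genes with UBE2C siRNA, and 1 to 3 genes between the knockdowns. Members more than 1 unit lower on UBE2C siRNA replicate 1 were 8 with the authors' processed values, whose scale has background left in, and 14 to 16 in the other settings. The cause of these changes was not tested. Signal near background limits CTNNA1, CTNND1 and CLDN4.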
